A study of Mesocricetus auratus with 8 samples.

Results

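The genes that build and fill the calcium store of the sarcoplasmic reticulum (SR) were followed in satellite cells (SCs) of the Syrian hamster, a hibernating rodent, before and after 24 h at 4°C. The 10 genes were taken by symbol from a list of SR calcium store genes (Atp2a1, Atp2a2, Casq1, Casq2, Trdn, Hrc, Srl, Dhrs7c, Sln and Asph), with no threshold on their expression. Each of the 10 was among the 17590 entries with values, of 31581 entries in the table, and 7 were among the 12506 genes with enough counts to be tested. Casq1, Trdn and Sln were too low for that filter. The NCBI gene identifiers in the table are 101824306 (Atp2a1), 101841211 (Atp2a2), 101830350 (Casq1), 101829540 (Casq2), 106023025 (Trdn), 101823693 (Hrc), 101843248 (Srl), 101823358 (Dhrs7c), 101835409 (Sln) and 101826336 (Asph).

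The SR is the form that the endoplasmic reticulum (ER) takes in muscle. SERCA pumps move calcium from the cytosol into its lumen, luminal proteins with many acidic residues hold it there at low affinity, and the ryanodine receptor lets it out when the muscle is excited. SCs are the stem cells of skeletal muscle. As their progeny differentiate, they switch on myogenin and the fusion genes first and then the proteins of the contractile apparatus and of the SR.

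Each group held 4 libraries of wild-type SCs, prepared from hindlimb muscles of sexually mature male Slc:Syrian hamsters by collagenase digestion and preplating. Both groups were grown for 48 h at 37°C and then for 24 h in growth medium with 100 mM HEPES, a buffer that holds the pH outside a CO2 incubator. Control cells were collected at 37°C, and cold cells after a further 24 h at 4°C in the same medium. By the titles and the study's description, no library was kept at 37°C for that further time, so cold and time in culture cannot be told apart. The titles put the control cultures at day 3, whereas another label field counts 3, 4, 5 and 6 days for control replicates 1 to 4. The study calls the libraries biological replicates but does not say whether they came from separate animals, and the p-values measure the spread between these libraries. The study describes the isolated cells as highly pure by Pax7 and MyoD staining. Satellite cell and myoblast markers summed to between 785 and 1016 TPM, the number of transcripts after scaling by length and library, over the 8 libraries and fibroblast markers to between 987 and 1517 TPM. Thy1 was the highest of the latter, at a control mean of 568 TPM, and which cells these transcripts came from was not tested.

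Depth was even, between 16530747 and 18533801 expected counts per library, and a count of 3 corresponds to between 0.162 and 0.182 CPM, the count scaled to library size. The first principal component, with 57.0% of the variance, separated replicates 1 and 2 from replicates 3 and 4, and the second, with 17.6%, separated cold from control. Myog, the gene for myogenin, stood at 1008, 1016, 449 and 480 TPM in control replicates 1 to 4 and at 564, 628, 314 and 292 TPM in cold replicates 1 to 4. The same split of replicates showed in the fibroblast markers, in the other direction, at 1005, 1001, 1323 and 1517 TPM in control replicates 1 to 4, and what it stands for was not tested. Libraries with the same replicate number deviated together from their group means, so each tested store gene is given without and with the replicate number as a block. Genes of the other lists are given from the fit with the block, and counts of their calls from both fits.

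The store genes ranged from those that were much lower in the cold to those that hardly differed, with Atp2a1 in between. Casq2, Hrc, Srl and Dhrs7c stood at 19.6%, 20.8%, 36.0% and 18.7% of their control mean TPM, Dhrs7c with overlapping groups. Atp2a1 stood at 73.9%, and Atp2a2 and Asph at 95.2% and 92.3%. Calls required an absolute log2 fold change of 1 or more together with an adjusted p below 0.05. In edgeR's quasi-likelihood test without the block, 0 of the 7 tested genes were called lower and 0 higher, against a background of 0.0400% of all tested genes called lower. At an unadjusted p under 0.05, 6 of the 7 were lower and 0 higher, against 4.13% and 2.57% of all tested genes. Of those 6, 4 also passed the fold threshold, as did 0.800% of all tested genes. With the block, 4 of the 7 were called lower (Casq2, Hrc, Srl and Dhrs7c) and 0 higher, against 0.808% of all tested genes called lower. Dhrs7c passed the count filter mainly on its control libraries (187 counts in control against 35 in cold). Its place among the tested genes was therefore not independent of the difference. DESeq2 without a block called Casq2, Hrc and Srl, and 0.528% of all tested genes, lower. Leaving out control replicate 3 alone let the unblocked fit call Casq2 and Hrc. Casq2, Hrc and Srl are also in the study's heat map, which shows the genes it called lower on these same libraries. The study used the same fold threshold with a Q below 0.05, whereas the unblocked edgeR fit here did not call them. The direction of these 3 genes in the study is therefore not independent evidence.

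**Figure D1:**
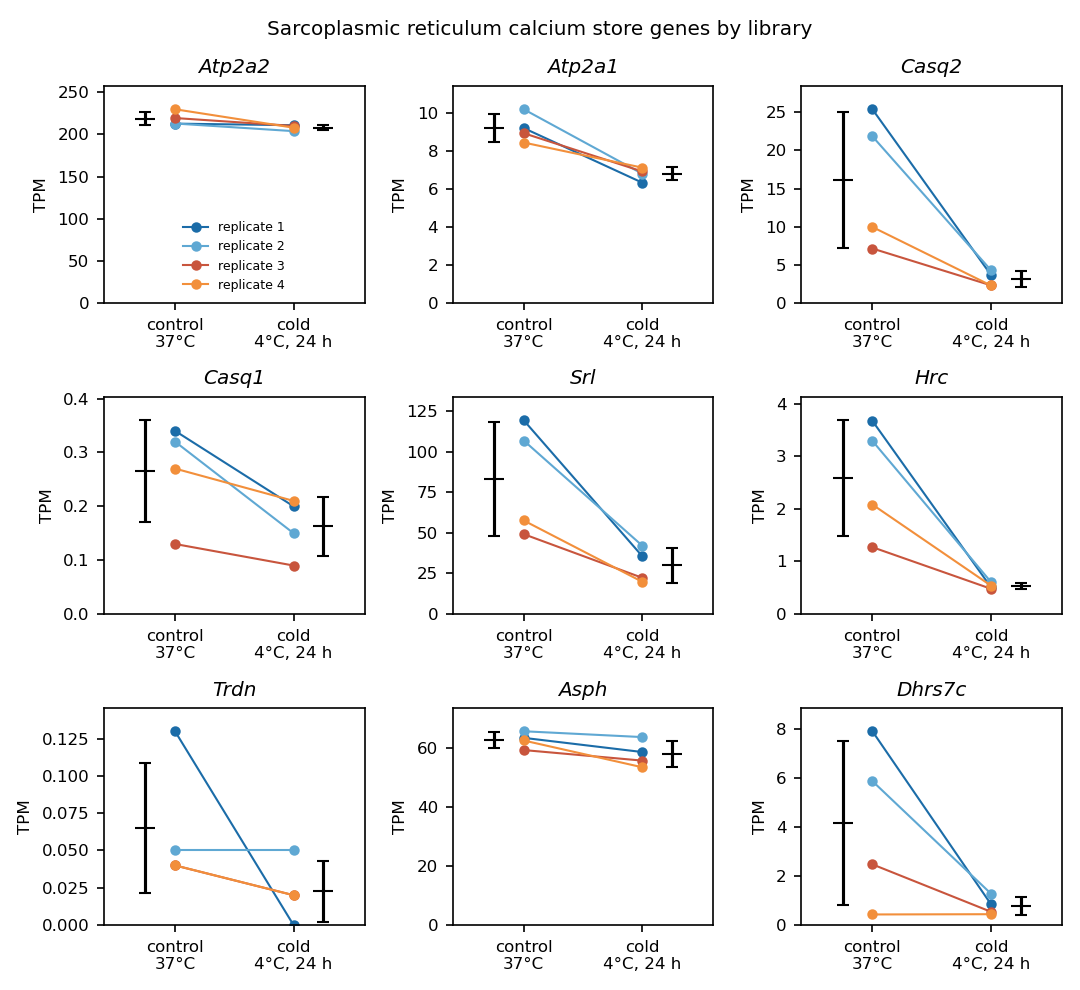
TPM of each store gene except Sln, which was 0 in every library, in the 4 control (37°C) and 4 cold (4°C, 24 h) libraries. Lines join libraries with the same replicate number, and the black bars at the sides show the mean ± SD of each group (n = 4). Casq2, Srl, Hrc, Atp2a1 and Atp2a2 were lower in the cold in 4 of 4 pairs with no overlap. Asph was lower in 4 of 4 pairs with overlap. Atp2a2 and Asph lay close to their control values.

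Counted by single libraries, the cold values lay wholly below the control values for 5 of the 10 genes (Atp2a1, Atp2a2, Casq2, Hrc and Srl). Over all tested genes, 2.41% had such a pattern. The cold library had the lower TPM of its pair in 4 of 4 pairs for 7 of the 10 genes, against 10.5% of all tested genes, the further 2 genes being Casq1 and Asph. The median log2 fold change of the 7 tested genes was −1.51, beside 0.0071 for all tested genes, and with the block these were −1.47 and 0.0075. Requiring a mean of 10 counts in each group left out Dhrs7c and gave a median of −0.98 for the other 6. In bulk RNA, fewer differentiated cells and less RNA in each cell cannot be told apart, and this holds for every gene below.

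SERCA pumps were represented by the fast-twitch isoform Atp2a1 and by Atp2a2, whose products serve slow muscle, heart and the ER of most cells. Atp2a2 was the most abundant store gene in every library. It stood at 213, 213, 220 and 230 TPM in control replicates 1 to 4 and at 211, 204, 210 and 208 TPM in cold replicates 1 to 4. The cold values lay just below the control values with no overlap (mean 219 ± 8.02 against 208 ± 3.13 TPM, SD, n = 4; exact two-sided permutation p = 0.0286, the smallest that 4 against 4 allows). The log2 fold change was −0.09 (SE 0.04), with an edgeR adjusted p of 0.732 without the block and 0.136 with it. With the block, the 95% interval of the log2 fold change ran from −0.16 to −0.02.

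Atp2a1 was 9.20, 10.2, 8.93 and 8.44 TPM in control replicates 1 to 4 and 6.33, 6.80, 6.92 and 7.12 TPM in cold replicates 1 to 4. All 4 cold libraries were below all 4 control libraries, and replicates 1 and 2 were above replicates 3 and 4 in the control group but not in the cold group (mean 9.19 ± 0.737 against 6.79 ± 0.335 TPM, SD, n = 4; exact two-sided permutation p = 0.0286). Its log2 fold change was −0.46 (SE 0.09, edgeR adjusted p = 0.151) and −0.45 with the block (SE 0.08, edgeR adjusted p = 0.00101). It therefore passed the adjusted p but not the fold threshold in the blocked fit, as 4.07% of all tested genes did on the lower side and 1.26% on the higher side when the fold threshold was set aside. The 4 genes called with the block are counted in that 4.07% too, which makes 5 of the 7 members. Atp2a1 amounted to between 3.67% and 4.78% of Atp2a2 in control libraries and to between 3.00% and 3.42% in cold libraries.

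Sln encodes sarcolipin, a small membrane peptide that binds SERCA and uncouples calcium transport from ATP use. It had 0 counts in each of the 8 libraries, which allows at most 0.182 CPM in the shallowest library by counting error alone. Of the other known peptides of this kind, Pln (phospholamban) had between 0 and 2 counts per library and Mrln (myoregulin) had 0, while Strit1, Erln and Arln had no values. The third pump gene, Atp2a3, averaged 0.243 TPM in control libraries and 0.263 TPM in cold ones (log2 fold change 0.13 with the block, edgeR adjusted p = 0.867).

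Among the luminal calcium-binding proteins, Casq2 had the largest fitted fold difference over all 8 libraries without and with the block, close to that of Hrc, which was the larger in pairs 1 and 2. It encodes the cardiac and slow-muscle calsequestrin, the bulk calcium buffer of the terminal SR. Casq2 stood at 25.4, 21.8, 7.14 and 9.96 TPM in control replicates 1 to 4 and at 3.69, 4.31, 2.32 and 2.30 TPM in cold replicates 1 to 4. The lowest control library was above the highest cold library, and replicates 1 and 2 were above replicates 3 and 4 in both groups. The means were 16.1 ± 8.89 and 3.16 ± 1.01 TPM (SD, n = 4; exact two-sided permutation p = 0.0286), a 5.10-fold difference. The log2 fold change was −2.38 (SE 0.45, edgeR adjusted p = 0.126) and −2.34 with the block (SE 0.12, edgeR adjusted p = 1.99e-10). Pair by pair the log2 ratios were −2.78, −2.34, −1.62 and −2.12. DESeq2 gave an adjusted p of 0.000707, and leaving out control replicate 3 brought the unblocked edgeR value to 0.0310.

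Casq1, the fast-muscle calsequestrin, was near the floor of detection. It had 11, 11, 4 and 9 counts in control replicates 1 to 4 and 7, 5, 3 and 7 counts in cold replicates 1 to 4, or 0.265 ± 0.0947 and 0.163 ± 0.0550 TPM (SD, n = 4; exact two-sided permutation p = 0.143). Each cold library was below its control partner, but the groups overlapped and the gene was not tested in the fit. Casq1 amounted to between 1.34% and 2.71% of Casq2 in control libraries and to between 3.48% and 9.13% in cold libraries.

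Hrc encodes the histidine-rich calcium-binding protein, which sits in the SR lumen and binds both triadin and SERCA. It stood at 3.67, 3.29, 1.27 and 2.08 TPM in control replicates 1 to 4 and at 0.51, 0.61, 0.48 and 0.54 TPM in cold replicates 1 to 4. The control libraries were spread widely, whereas the cold libraries lay close together, at 16 to 20 counts each (mean 2.58 ± 1.10 against 0.535 ± 0.0557 TPM, SD, n = 4; exact two-sided permutation p = 0.0286). The log2 fold change was −2.29 (SE 0.36, edgeR adjusted p = 0.0560) and −2.27 with the block (SE 0.20, edgeR adjusted p = 3.19e-07). Without a block, Hrc passed both thresholds in edgeR when no filter on low counts was set (adjusted p = 0.0390), in edgeR without control replicate 3 (adjusted p = 0.00956) and in DESeq2 (adjusted p = 1.99e-06).

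Srl encodes sarcalumenin, a luminal glycoprotein that binds calcium and stabilizes SERCA. It was the second most abundant store gene in control replicates 1 and 2. Srl stood at 119, 107, 49.2 and 57.6 TPM in control replicates 1 to 4 and at 35.7, 42.1, 22.3 and 19.9 TPM in cold replicates 1 to 4. The groups did not overlap (mean 83.3 ± 35.0 against 30.0 ± 10.7 TPM, SD, n = 4; exact two-sided permutation p = 0.0286), and cold replicate 2 came closest to the lowest control library, replicate 3. Its log2 fold change was −1.51 (SE 0.36, edgeR adjusted p = 0.25) and −1.47 with the block (SE 0.07, edgeR adjusted p = 5.29e-11), the smallest adjusted p of the store genes. DESeq2 gave an adjusted p of 0.0358.

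**Figure D2:**
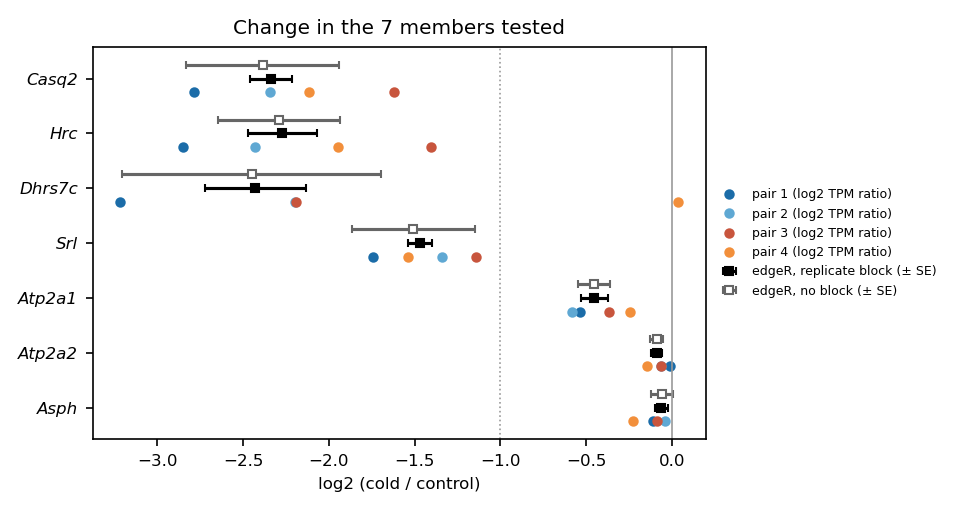
Log2 fold change, cold over control, of the 7 tested store genes in edgeR without and with the replicate number as a block, with standard errors. The fold changes hardly moved between the fits (Casq2 −2.38 and −2.34, Srl −1.51 and −1.47), while the standard errors shrank with the block (Srl 0.36 to 0.07).

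The proteins that tie the calcium buffer to the release channel are triadin (Trdn) and junctin, one of several products of the Asph locus. Trdn was almost absent, with 7, 3, 2 and 2 counts in control replicates 1 to 4 and 0, 3, 1 and 1 counts in cold replicates 1 to 4, so no difference was detectable at this depth (exact two-sided permutation p = 0.114 on TPM). Asph was abundant, at 63.6, 65.8, 59.4 and 62.7 TPM in control replicates 1 to 4 and at 58.8, 63.9, 55.9 and 53.6 TPM in cold replicates 1 to 4. Each cold library was below its partner, but the groups overlapped (mean 62.9 ± 2.65 against 58.0 ± 4.43 TPM, SD, n = 4; exact two-sided permutation p = 0.143). The log2 fold change was −0.06 (SE 0.07, edgeR adjusted p = 0.999) and with the block it was −0.06 with a 95% interval from −0.15 to 0.02 (edgeR adjusted p = 0.449). The ratio of Srl to Asph, both on the TPM scale, was 188%, 162%, 82.8% and 91.9% in control replicates 1 to 4 and 60.7%, 66.0%, 40.0% and 37.1% in cold replicates 1 to 4, so Asph exceeded Srl in 6 of 8 libraries.

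Asph also makes aspartyl beta-hydroxylase, an ER enzyme, and junctate, and a value per gene cannot separate these products from junctin. One measure of the gene did differ between the groups, and it was chosen after its values were seen. The expected count that corresponds to 1 TPM depends on the transcript length assigned to the gene in each library, after the library's own scale is taken out. Relative to the control mean, this was 96.1%, 98.0%, 103% and 103% in control replicates 1 to 4 and 106%, 104%, 106% and 106% in cold replicates 1 to 4. Every cold library was above every control library (a change of 5.2%; exact two-sided permutation p = 0.0286), a pattern found in 0.746% of 8313 genes with at least 200 counts and 1 TPM in each library. A change at least as high occurred in 0.229% of those genes, and 91.7% of them changed by under 1%. The groups overlapped for Atp2a1, Atp2a2 and Srl, the other members that could be measured this way. RefSeq lists 13 transcripts of Asph in the hamster. Which of them carried the change was not tested, since the values are per gene.

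**Figure D3:**
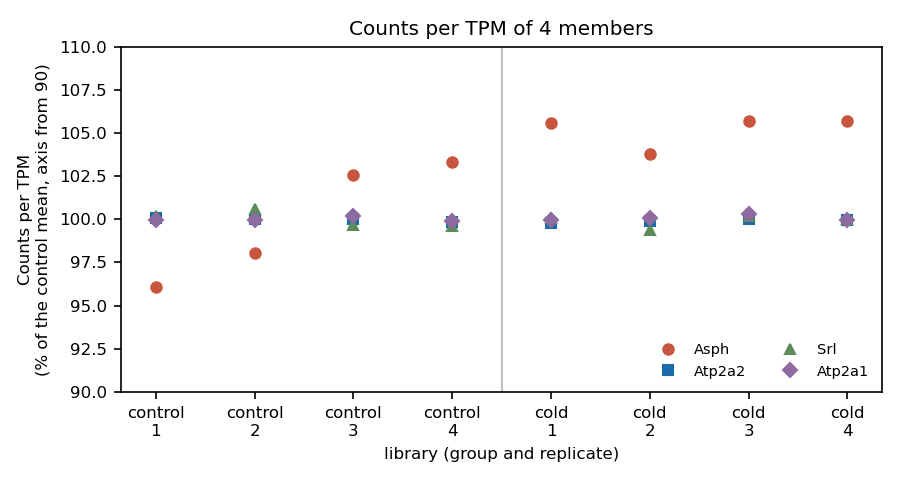
Expected counts per TPM, as percent of the control mean, of the 4 store genes with at least 200 counts in each library, for control and cold libraries by replicate. Asph lay between 96.1% and 103% in control and between 104% and 106% in cold libraries, and the other 3 genes stayed close to 100%.

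Dhrs7c encodes an SR membrane enzyme of the short-chain dehydrogenase family that is found in striated muscle. It had 88, 68, 26 and 5 counts in control replicates 1 to 4 and 10, 14, 6 and 5 counts in cold replicates 1 to 4. The first 3 pairs were much lower in the cold, with log2 ratios of −3.21, −2.20 and −2.19 on the TPM scale, but the fourth was flat at 0.43 and 0.44 TPM, so the groups overlapped (mean 4.16 ± 3.35 against 0.778 ± 0.378 TPM, SD, n = 4; exact two-sided permutation p = 0.143). The log2 fold change was −2.45 (SE 0.76, edgeR adjusted p = 0.460) and −2.43 with the block (SE 0.29, edgeR adjusted p = 1.36e-05). With log2(TPM + 1) in limma the difference was −1.25 and was not called.

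Shares of single genes in the summed TPM of the store genes differed between the groups, and this was not tested. Atp2a2 and Asph also have products of the general ER, so the sum is not that of an SR store alone. The summed TPM of the 10 genes was between 348 and 442 in control and between 292 and 323 in cold libraries. Atp2a2 made up 48.11%, 49.85%, 63.05% and 61.9% of that sum in control replicates 1 to 4 and between 63.12% and 71.2% in cold libraries. The groups nearly met, and the replicate split in the control group was wider than the gap. The share of Atp2a2 rose as other genes fell, since its own TPM was slightly lower in the cold. The share of Srl was between 14.1% and 27.0% in control and between 6.80% and 13.0% in cold libraries.

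Genes that mark muscle differentiation moved with Casq2, Hrc and Srl, and their part in these results was not tested. Of the 7 markers on that list, 6 were tested, and all 6 (Myog, Mymk, Mymx, Ckm, Tnnt3 and Mef2c) were lower at an adjusted p under 0.05 in the blocked edgeR fit, beside 4.07% of all tested genes, with a median log2 fold change of −1.07. None was called without the block, where 3 of the 6 were lower at an unadjusted p under 0.05, beside 4.13% of all tested genes, and DESeq2 called 2, beside 0.528%. Their summed level ran from 1411 to 2665 TPM in control libraries and from 867 to 1602 TPM in cold ones. Of the satellite cell and myoblast markers, Myod1 (log2 fold change −0.13) and Cdh15 (−0.32) passed the adjusted p in that fit, but not without the block (edgeR adjusted p = 0.999 and 0.826). Of the 7 fibroblast markers, 0 passed it in either edgeR fit or in DESeq2, and 1 was lower at an unadjusted p under 0.05 with the block, near the 9.76% of all tested genes. Cardiac markers, relevant because Casq2 and Atp2a2 are the calsequestrin and SERCA genes of the heart, summed to at most 0.65 TPM in any library.

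Set against Myog, all 3 of these genes were lower in the cold with no overlap. Casq2 amounted to between 1.59% and 2.52% of Myog in control and to between 0.654% and 0.788% in cold libraries. Srl amounted to between 10.5% and 12% of Myog in control and to between 6.32% and 7.12% in cold libraries, and Hrc to between 0.283% and 0.434% and between 0.0904% and 0.185%. Myog was itself lower in the cold in 4 of 4 pairs. Across the replicate split, cold replicates 1 and 2 had more Myog than control replicates 3 and 4 and less Casq2, Hrc and Srl. What these ratios stand for was not tested. Set against Mymk, which encodes the fusion protein myomaker, the picture differed between the genes. Srl amounted to between 30.6% and 33.5% of Mymk in control and to between 31.9% and 38.2% in cold libraries, so the ratio overlapped. Mymk is also the first of the genes listed below as most like Srl over these same libraries (Pearson's r 0.997). A steady ratio of the pair is therefore no separate result. Casq2 amounted to between 4.86% and 6.94% of Mymk in control and to between 3.34% and 3.97% in cold libraries, without overlap, while the ratio of Hrc overlapped by a narrow margin.

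**Figure D4:**
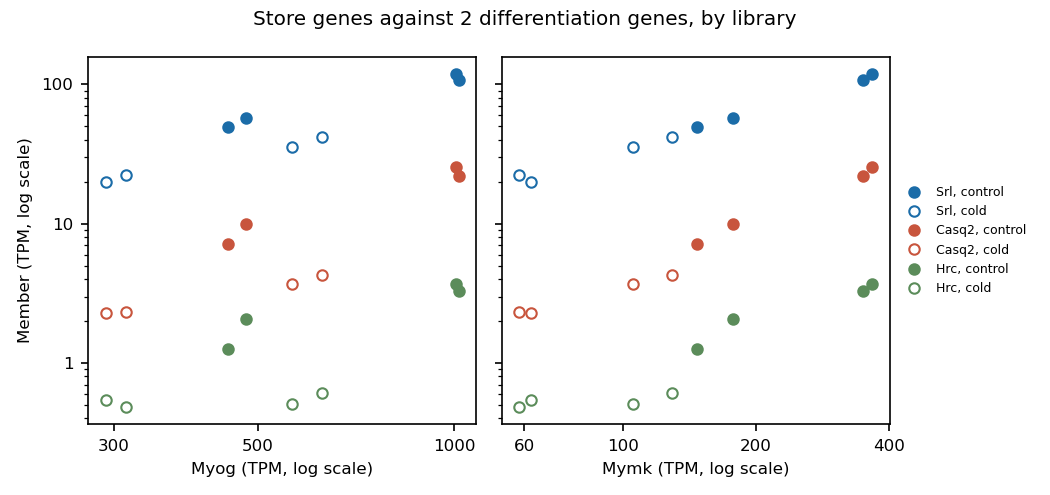
Srl, Casq2 and Hrc against Myog (left) and Mymk (right) in each library, in TPM on log axes, with control libraries filled and cold libraries open. For each gene the cold libraries lie below the control libraries, but only cold replicates 1 and 2 have Myog within the control range. Srl lies along 1 band against Mymk, at 30.6% to 38.2% of it in all 8 libraries. Mymk was the gene listed as most like Srl over these same libraries.

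The genes whose pattern over the 8 libraries was most like that of each tested member were found by Pearson's r of log2(TPM + 0.1). The libraries share their replicate split and their group, so high values are common and are given only as a description. For Casq2 they were Mef2c (0.995), Trim54 (0.993) and Myh3 (0.993). For Srl they were Mymk (0.997), Stac2 (0.995) and Svil (0.995), and for Hrc they were Flnc (0.993), Slc22a3 (0.992) and Myom3 (0.990). Dhrs7c was most like Olfm2 (0.990), Iffo1 (0.981) and Rbm38 (0.979). Atp2a1 had Sptbn5 (0.979), Ttc39a (0.979) and Sowaha (0.978) as its nearest. Atp2a2, with little variation to follow, reached 0.946 with Entpd4, 0.942 with Rnf185 and 0.941 with Spring1, and Asph reached 0.974 with Lrrc41, 0.955 with Mllt11 and 0.953 with Mboat2. Among the members, Casq2 and Srl (0.987), Casq2 and Hrc (0.978) and Hrc and Srl (0.933) ran close together, whereas Atp2a2 and Dhrs7c did not (−0.076).

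Part of the release machinery of the same membrane system was lower as well. Of the 18 genes listed for release channels and the junction with the cell membrane, 17 were tested. None was called without the block, where 8 were lower at an unadjusted p under 0.05 (4.13% of all tested genes) and DESeq2 called 2 (0.528%). With the block, 2 were called lower, beside 0.808% of all tested genes. These were Cacng1 (log2 fold change −1.92, SE 0.22, edgeR adjusted p = 5.89e-06, and 0.415 without the block) and Cacna1s (−1.19, SE 0.10, edgeR adjusted p = 1.20e-07, and 0.349 without the block). They encode the gamma subunit and the voltage-sensing pore subunit of the muscle L-type calcium channel. With the fold threshold set aside, 9 of the 17 were lower and 0 higher in the blocked fit, beside 4.07% and 1.26% of all tested genes, and the median of the 17 was −0.22 beside 0.0075.

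The further 7 of those 9 are named after their values were seen. Without the block their adjusted p lay between 0.0709 (Jph2) and 0.887 (Cacna2d1). Ryr1, the calcium release channel of skeletal muscle, went from 11.0 to 6.90 TPM (log2 fold change −0.68, blocked edgeR adjusted p = 5.16e-08). Jph2 and Jph1, the junctophilins that hold the SR against the cell membrane, changed by −0.92 and −0.59 (blocked edgeR adjusted p = 1.01e-05 and 8.22e-07). The others were Tmem38a (−0.90), a potassium channel of the SR, Stac3 (−0.89), an adaptor of the L-type channel, and its subunits Cacnb1 (−0.46) and Cacna2d1 (−0.22). Fkbp1a, the most abundant gene of the list at 751 and 740 TPM, with partly fractional counts, had a log2 fold change of −0.04 with the block (edgeR adjusted p = 0.618).

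**Figure D5:**
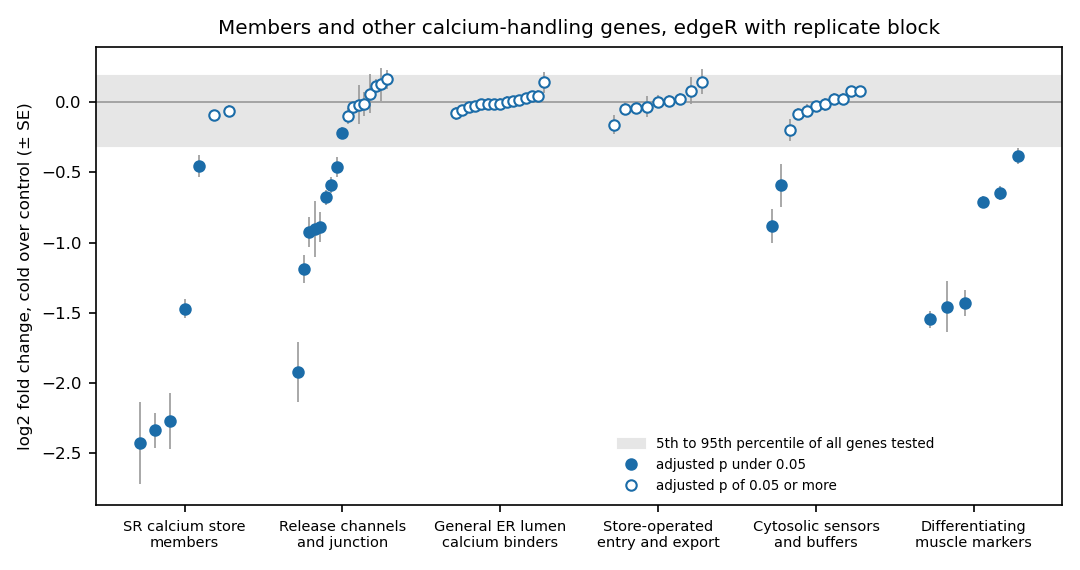
Log2 fold change with SE in the blocked edgeR fit for the tested store genes, the genes of 4 other calcium-handling lists and the differentiating muscle markers, each point 1 gene, filled where the adjusted p is under 0.05. The grey band is the range between the 5th and 95th percentiles of all tested genes. Some store genes, release genes and differentiation markers reach far below it, while the 15 general ER lumen genes lie within it. Of the store genes, Atp2a2 (−0.09) and Asph (−0.06) lie near the zero line. Camk2a (−0.88) and Camk2b (−0.59) are the lowest of the cytosolic sensors and buffers.

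The general ER and the cell membrane hold the calcium proteins common to most cell types. No gene of either list was called, and with 0.0400% of all tested genes called lower without the block, 0.808% with it and 0.528% by DESeq2, lists of this size can be read only by their values. Of the 15 calcium binders and chaperones of the general ER lumen, all were tested and 0 were called by edgeR with or without the block or by DESeq2, also with the fold threshold set aside. None of them reached an unadjusted p under 0.05 in either edgeR fit. Their median log2 fold change was −0.012 with the block and −0.011 without it, and in the latter 8 were below 0 and 7 above. Calr (calreticulin), the main calcium buffer of the ER in non-muscle cells, averaged 1428 TPM in control libraries and 1487 TPM in cold ones (0.04, blocked edgeR adjusted p = 0.552). The gene with the largest change was Nucb2, a calcium-binding nucleobindin, at 0.14 (blocked edgeR adjusted p = 0.361).

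Of the 10 genes for store-operated calcium entry and export from the cell, 9 were tested and 0 were called by edgeR with or without the block or by DESeq2. At an unadjusted p under 0.05, 0 were lower without the block and 1 with it, beside 4.13% and 9.76% of all tested genes, so 1 of 9 is near the background. Orai1, the pore of the store-operated channel, had the largest change at −0.16 (blocked edgeR adjusted p = 0.188), and Saraf, the most abundant gene of the list, went from 60.5 to 59.2 TPM. Of the 12 cytosolic sensors and buffers, 11 were tested. None was called at both thresholds in either edgeR fit or by DESeq2. At the adjusted p alone, 2 were lower and 0 higher with the block, beside 4.07% and 1.26% of all tested genes. These were Camk2a (−0.88, blocked edgeR adjusted p = 7.15e-05) and Camk2b (−0.59, 0.0292), subunits of the calmodulin-dependent kinase, with an adjusted p of 0.739 and 0.306 without the block. At an unadjusted p under 0.05, 2 of the 11 were lower without the block. Camk2b is named after its value was seen. Calm2, a calmodulin gene and the most abundant of this list, went from 790 to 843 TPM (0.08, blocked edgeR adjusted p = 0.198). Pvalb, the parvalbumin gene of fast adult fibres, had 0 counts in every library.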

How the data were processed

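Poly(A) RNA of 4 control and 4 cold libraries was sequenced as paired 150 bp reads (DNBSEQ-G400). The authors deposited 1 table. Its expected counts per gene were estimated by the authors from the reads and deposited without normalization, and 96.4% to 96.6% of them per library are whole. All 10 store genes have whole counts. Its TPM values carry the authors' scaling by transcript length and library. Its normalized counts, a signal the authors deposited, were used in 1 alternative. The submitters' processing notes name HISAT and HISAT2. The counting program and genome build are not given in the sources used here, so no coordinates are printed. All 17590 identifiers with values matched RefSeq (BCM_Maur_2.0), used for names and transcript numbers.

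Expected counts were rounded and tested over all genes in edgeR 4.0.16 (R 4.3.3) with filterByExpr, TMM and the quasi-likelihood test. Benjamini-Hochberg adjustment covered all 12506 genes tested, and a standard error is the size of the log2 fold change over the root of its F statistic. Alternatives used DESeq2 1.42.0 and limma 3.58.1. TPM values were compared by an exact two-sided permutation test over 70 arrangements. Floors and bounds cover counting error only. Scripts were tested on simulated data.

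Control and cold libraries share replicate numbers in their titles. Deviations from the group means correlated at 0.635, 0.656, 0.679 and 0.682 between libraries of the same number, across genes, which are not independent replicates. Between different numbers they were nearly as high within replicates 1 and 2 (0.598 and 0.625) and lower within replicates 3 and 4 (0.483 and 0.437). Otherwise they were −0.634 to −0.572, so much of the correlation is this split. Every library correlated best with its own number. On this evidence from the data the libraries were treated as pairs. The labels do not say what a number marks, although the days in another label field rise with it in the control libraries. Between libraries of a group, chi-square per gene was 2.46 to 27.0, so none was treated as a copy.

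The store genes, lists and tests were chosen with earlier results of these data known. Named genes are all 10 store genes, pathway genes past both thresholds with the block, the most abundant and the most changed gene of each list, and the 3 genes most like each tested store gene. Outside this rule, markers are named from their lists, and the other release genes, Camk2b, Pln, Mrln, Pvalb and list genes without values were named after their values were seen. Of the marker lists, the endothelial genes summed to at most 3.87 TPM, macrophage and leukocyte genes to 55.7, smooth muscle genes to 1964, adipocyte genes to 1.08 and Schwann cell genes to 2.77. Of these lists, Acta2 alone passed the adjusted p in the blocked edgeR fit (log2 fold change −0.46), as 4.07% of all tested genes did on the lower side, and it did not pass without the block (adjusted p = 0.676) or in DESeq2 (0.377).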

Additional observations from a re-analysis of the deposited data

Results flagged for a closer look

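In control replicate 1, Trdn stood at 0.13 TPM against 0.04 to 0.05 TPM in the other 3 control libraries, a gap of 0.889 of the group's whole range and above Dixon's critical value. The value rests on 7 counts. It was the only 1 of 18 groups of store gene values that stood apart in this way, and chance alone gives about 0.9.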

How the results depend on the processing

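All 131 fold changes of the tested store genes, over the fits run, were below 0, and 0 store genes were called higher in any of them. The calls depended on the fit. Without the block, 5 genes of all tested were called lower and 0 higher. With the replicate block these were 101 and 5, and the store genes called lower went from 0 to 4 and the pathway genes from 0 to 2. The block changed no call of the other store genes at both thresholds. With the block and no fold threshold, added after seeing the data, 509 genes were lower and 158 higher, with 5 store genes and 11 pathway genes. Without the block, dropping the fold threshold gave 9 genes lower. DESeq2 called 66 genes and 3 store genes lower, library totals 8 genes, no filter 15 genes and 1 store gene, a mean of 10 counts 3 genes (with a median of −0.98 for the store genes, Dhrs7c not being tested), and limma 3 genes with either pseudocount. Leaving out 1 library gave 0 to 33 genes lower, 0 to 1 higher and 0 to 2 store genes, the highest in each case without control replicate 3. Replicates 1 and 2 alone gave 175 genes lower, 8 higher and 4 store genes lower. Replicates 3 and 4 alone gave 27, 1 and 2 (Casq2 and Srl), and a median of −0.81 for the store genes against −1.51, in a fit that did not test Dhrs7c. The log2 fold change ranged from −2.64 to −1.87 for Casq2, −1.73 to −1.27 for Srl, −2.69 to −1.16 for Hrc and −2.83 to −1.25 for Dhrs7c, the last 2 smallest with a pseudocount of 1 TPM. The cause of these differences was not tested. Depth limited Casq1, Trdn and Sln.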
